A study of Mus musculus with 42 samples.

Results

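LEF1 binding was compared between wild-type (WT) mouse cells and cells that lack the gene T, also called Brachyury (T/BraKO), using sequencing of immunoprecipitated chromatin (ChIP–seq). The members were chosen by antibody and genotype alone: 6 LEF1 libraries with a deposited peak list, 3 WT and 3 T/BraKO, of 42 samples in the series. All came from embryonic stem cells of the HM1 line (129 strain) or its knockout derivatives, grown for 72 h in bFGF (10 ng/ml) and LGK974 (5 µM), a drug that blocks WNT secretion. CHIR99021, a GSK3 inhibitor that switches on WNT signalling inside the cell, was present from day 2 to day 3 in every library used here. The T/BraKO cells carried the T/Bra-/- genotype, and the labels give replicates 1 to 3 of each group as independent biological replicates. Each genotype is a cell line of its own, so genotype and line cannot be told apart. β-catenin libraries (3 per genotype), SOX2 libraries (3 per genotype) and LEF1 libraries of cells without Cdx1, Cdx2 and Cdx4 (CdxKO, 3) grown the same way were used to describe the LEF1 sites. The CdxKO LEF1 peaks also entered the merging of peaks into regions.

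LEF1 is a DNA-binding factor of the TCF/LEF family that reads the end of the canonical WNT pathway. When WNT signals, β-catenin escapes degradation, enters the nucleus and is held on DNA by TCF/LEF factors, which recognise a short motif with CTTTGA at its core. T is a T-box transcription factor of the primitive streak and tailbud, itself a WNT target, and is needed for posterior mesoderm. The comparison asks at which sites and genes LEF1 was found with and without T.

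Each library had its own MACS peak list, in which every peak has a fold enrichment over local background, a −log10 q and a summit. The WT lists held 612343, 723070 and 175430 peaks and the T/BraKO lists 924506, 858843 and 281971. The group means of log10 peak number differed by 0.153 (5.63 ± 0.34 in WT and 5.78 ± 0.29 in T/BraKO, SD, n = 3). This was less than the spread between replicates (exact permutation test, two-sided, p = 0.5). Much of that spread came from replicate 3, the shortest list of each genotype. Each T/BraKO list was longer than the WT list of the same number (exact sign-flip test, p = 0.25, the smallest possible). The lists hold no read counts, but the fold enrichment and the p-value of a peak together fix the number of reads at its summit. At rank 20000 by −log10 q those implied reads were only 12 to 16 in the 6 lists, against 17 to 26 at rank 1000 and 211 to 408 at the best peak. A peak deep in a list therefore rests on few reads. The 1000, 5000 and 20000 best peaks of each list were compared for this reason.

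The 20000 best peaks of the 9 LEF1 lists were merged into regions where they overlapped. Of the merged regions, 111924 held a peak of at least 1 of the 6 WT and T/BraKO lists. Of these, 271 were among the 20000 best of all 6 WT and T/BraKO lists (0.242% of regions), 106 of all 3 WT and no T/BraKO list (0.0947%) and 29 of all 3 T/BraKO and no WT list (0.0259%). These classes are called shared, WT-only and T/BraKO-only regions, and they describe ranks, not presence: 18 of the 106 WT-only regions still had a peak in all 3 full T/BraKO lists, and only 8 had one in none of them. With the 1000 best peaks per list, 113 of 3838 regions were shared (2.94%), 44 were WT-only (1.15%) and 9 T/BraKO-only (0.234%). With the 5000 best, 193 of 25790 were shared (0.748%), 75 WT-only (0.291%) and 20 T/BraKO-only (0.0775%). Because the calls define the classes, their sizes are a description without a test.

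All sequences printed here hold a TCF/LEF motif, which was not so at every top site. Windows of the same length at several of the best shared regions, such as those nearest Fam227b, Ybx3 and Acacb, hold none. The stretches printed here are 121 bases of the RefSeq mouse genome (GRCm38.p6, plus strand) centred on a LEF1 summit, 5′ to 3′, in lower case with each TCF/LEF motif (CTTTGAA or CTTTGAT, or on the other strand TTCAAAG or ATCAAAG) in capitals. Foxb1 and Nectin1 name the nearest gene of shared regions with a pair of motifs each, and Axin2 is a shared site at a classical WNT feedback gene.
Foxb1, chr9:69668834-69668954: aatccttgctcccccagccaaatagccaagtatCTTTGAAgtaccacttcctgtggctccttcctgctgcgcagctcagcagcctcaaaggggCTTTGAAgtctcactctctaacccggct
Nectin1, chr9:43843916-43844036: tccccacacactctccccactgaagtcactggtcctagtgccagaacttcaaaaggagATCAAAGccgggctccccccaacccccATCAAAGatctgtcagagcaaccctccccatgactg
Axin2, chr11:108921177-108921297: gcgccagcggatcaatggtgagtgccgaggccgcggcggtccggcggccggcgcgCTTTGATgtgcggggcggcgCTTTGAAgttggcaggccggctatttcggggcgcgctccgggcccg
Dkk4 and Msgn1 are the WT-only sites at genes of the WNT and mesoderm lists.
Dkk4, chr8:22623733-22623853: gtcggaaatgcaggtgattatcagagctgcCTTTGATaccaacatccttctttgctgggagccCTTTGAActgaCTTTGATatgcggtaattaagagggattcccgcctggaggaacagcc
Msgn1, chr12:11209108-11209228: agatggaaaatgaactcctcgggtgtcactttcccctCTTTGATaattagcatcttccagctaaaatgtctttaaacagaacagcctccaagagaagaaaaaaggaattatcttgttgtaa
Shb, Nmnat2 and Luzp2 are T/BraKO-only sites, each in an intron of the named gene.
Shb, chr4:45514152-45514272: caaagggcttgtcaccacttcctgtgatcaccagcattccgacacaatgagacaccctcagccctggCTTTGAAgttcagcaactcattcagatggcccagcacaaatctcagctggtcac
Nmnat2, chr1:153040216-153040336: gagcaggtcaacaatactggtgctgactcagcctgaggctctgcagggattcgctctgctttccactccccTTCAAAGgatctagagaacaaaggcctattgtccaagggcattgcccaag
Luzp2, chr7:55164029-55164149: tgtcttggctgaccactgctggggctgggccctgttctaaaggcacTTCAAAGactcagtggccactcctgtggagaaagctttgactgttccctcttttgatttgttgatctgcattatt
Actr2, Vwc2 and Gm5129 are the nearest genes of 3 WT-only regions that share their sequence and are called family B here. The run around gcagtcctgcctagg and the motif near the right end recur in each.
Actr2, chr11:20134682-20134802: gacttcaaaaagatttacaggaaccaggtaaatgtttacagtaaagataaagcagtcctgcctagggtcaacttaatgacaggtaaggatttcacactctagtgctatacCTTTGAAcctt
Vwc2, chr11:10867857-10867977: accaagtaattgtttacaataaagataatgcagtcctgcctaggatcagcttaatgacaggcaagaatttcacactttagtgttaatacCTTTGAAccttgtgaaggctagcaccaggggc
Gm5129, chr5:29800086-29800206: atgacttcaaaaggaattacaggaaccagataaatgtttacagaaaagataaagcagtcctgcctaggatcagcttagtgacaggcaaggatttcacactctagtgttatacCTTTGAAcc
Klf6, Pkdcc and Cpa6 are the nearest genes of WT-only regions of another such group, family A, whose members are linked through wider windows than those printed. Arhgef28 is the single T/BraKO-only region of this family.
Klf6, chr13:5440568-5440688: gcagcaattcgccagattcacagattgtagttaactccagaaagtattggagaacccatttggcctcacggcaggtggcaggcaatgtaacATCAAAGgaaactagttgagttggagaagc
Pkdcc, chr17:82494592-82494712: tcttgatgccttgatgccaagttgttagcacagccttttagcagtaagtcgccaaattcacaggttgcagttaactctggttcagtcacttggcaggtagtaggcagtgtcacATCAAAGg
Cpa6, chr1:10603602-10603722: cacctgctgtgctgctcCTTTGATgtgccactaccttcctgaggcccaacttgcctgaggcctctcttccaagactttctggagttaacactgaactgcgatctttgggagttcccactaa
Arhgef28, chr13:98223971-98224091: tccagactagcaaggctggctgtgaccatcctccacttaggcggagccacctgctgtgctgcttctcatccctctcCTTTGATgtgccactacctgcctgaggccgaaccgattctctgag

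The agreement between lists fell with rank in all 6 libraries. Among ranks 1 to 100, 77% to 93% of the peaks of a list were also among the 20000 best of both other lists of its genotype, and among ranks 10001 to 20000 this was 0.2% to 0.6%. The TCF/LEF motif within 100 bp of the summit fell in the same way only from ranks 101 to 300 on. At ranks 1 to 100 it lay at 37% to 82% of summits. This was less than at ranks 101 to 300 in WT replicate 2 and in all 3 T/BraKO lists. It lay at 58.5% to 76.5% of summits at ranks 101 to 300 and at 12.4% to 15.8% at ranks 10001 to 20000, where the same windows moved by 1000 bp held it at 8.01% to 9.1%. All 3 β-catenin lists of the same genotype had a peak at 61% to 97% of LEF1 peaks at ranks 1 to 100, at 34.1% to 62.3% at ranks 301 to 1000 and at 2.04% to 3% at ranks 10001 to 20000. WT replicate 2 stood apart from the other 5 libraries at the very top, with the motif at 37% and all 3 β-catenin lists at 61% of its 100 best peaks.

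**Figure D1:**
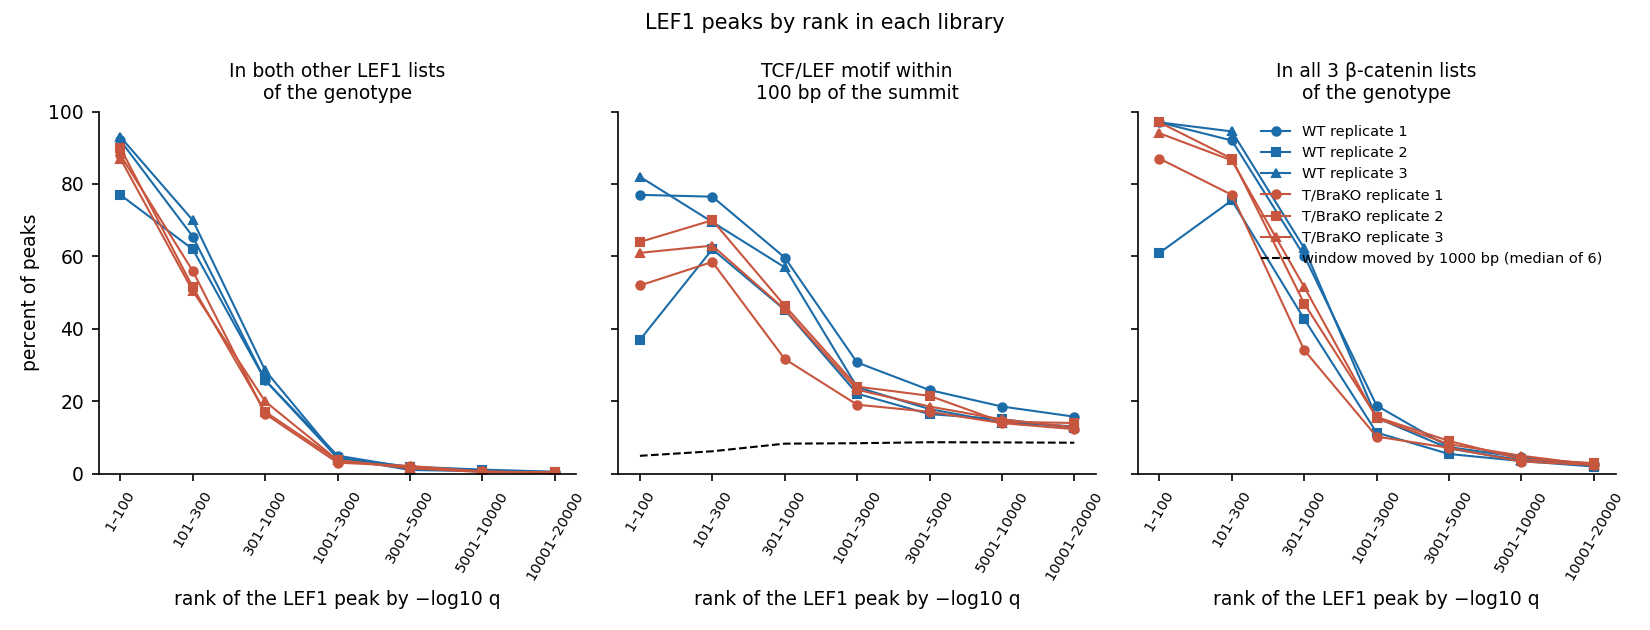
Percent of LEF1 peaks in bins of rank (x axis, rank 1 is the best −log10 q) that were shared with both other lists of the genotype, held a TCF/LEF motif at the summit, or had a peak in all 3 β-catenin lists of the genotype, 1 line per library. All 6 lines fall from above 50% at ranks 101 to 300 to below 20% at ranks 10001 to 20000, and the dashed line gives the motif in windows moved by 1000 bp.

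Averaged over both genotypes, lists of the same genotype were slightly more alike than lists of different genotypes, but this held for the WT lists alone. The mean Jaccard index of the 20000 best peaks was 0.0253 within and 0.0238 between genotypes, an excess of 0.00142 that none of the other ways to split 6 libraries into 3 and 3 exceeded (exact permutation test over 10 splits, one-sided, p = 0.1, the smallest possible). With the 1000 best peaks the values were 0.186 and 0.163 (exact permutation p = 0.1). The WT lists were more alike (0.0273) than the T/BraKO lists (0.0233). The T/BraKO value was below that between genotypes, also with the 1000 best peaks (0.161 against 0.163). Without WT replicate 2 the excess was -0.000359 and without WT replicate 3 it was -7.06e-05, so its sign rested on those libraries. With the full lists the excess was -0.00206. Of 10 tests between the genotypes, 3 reached the smallest p that 3 against 3 libraries allow, and adjusted p-values (Benjamini-Hochberg) were 0.333 to 0.6.

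The letters at the LEF1 sites did not separate the genotypes beyond the spread between replicates. The TCF/LEF motif lay at 21.2%, 16.4% and 17.4% of the 20000 best summits in WT and at 15.3%, 17.8% and 16.9% in T/BraKO (means 18.3% ± 2.5 and 16.7% ± 1.3, SD, n = 3, exact permutation p = 0.5). The T-box motif AGGTGTGA, which T itself recognises, was rare at LEF1 summits in every library, at 0.905%, 0.995% and 1.03% in WT and 0.895%, 0.915% and 1% in T/BraKO (exact permutation p = 0.5). The share of summits no more than 1000 bp from a gene start was 7.89%, 6.17% and 7.29% in WT and 5.72%, 7.21% and 7.73% in T/BraKO (exact permutation p = 0.6). In each of these 3 measures the groups overlapped.

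The motif was found at most regions of each class. It lay at 190 of 271 shared (70.1%), 73 of 106 WT-only (68.9%) and 20 of 29 T/BraKO-only regions (69%), against 7.38%, 10.4% and 0% in the moved windows. Matches gathered within 50 bp of the summit, with 38.0 and 41.7 matches per 100 shared regions in the bins on either side of it. The T-box motif was found at 3 shared (1.11%), 3 WT-only (2.83%) and no T/BraKO-only region, against 0.369%, 0% and 0% in the moved windows. Among all 20000 best summits of a list the share was 0.895% to 1.03%. Counts this small do not tell the classes apart. The shared regions had the stronger peaks, with a median of 50, 30 and 32 implied reads in WT and 34, 36 and 33 in T/BraKO. WT-only regions had medians of 25, 23 and 21.5 reads in the WT lists and T/BraKO-only regions 22, 19 and 16 in the T/BraKO lists.

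**Figure D2:**
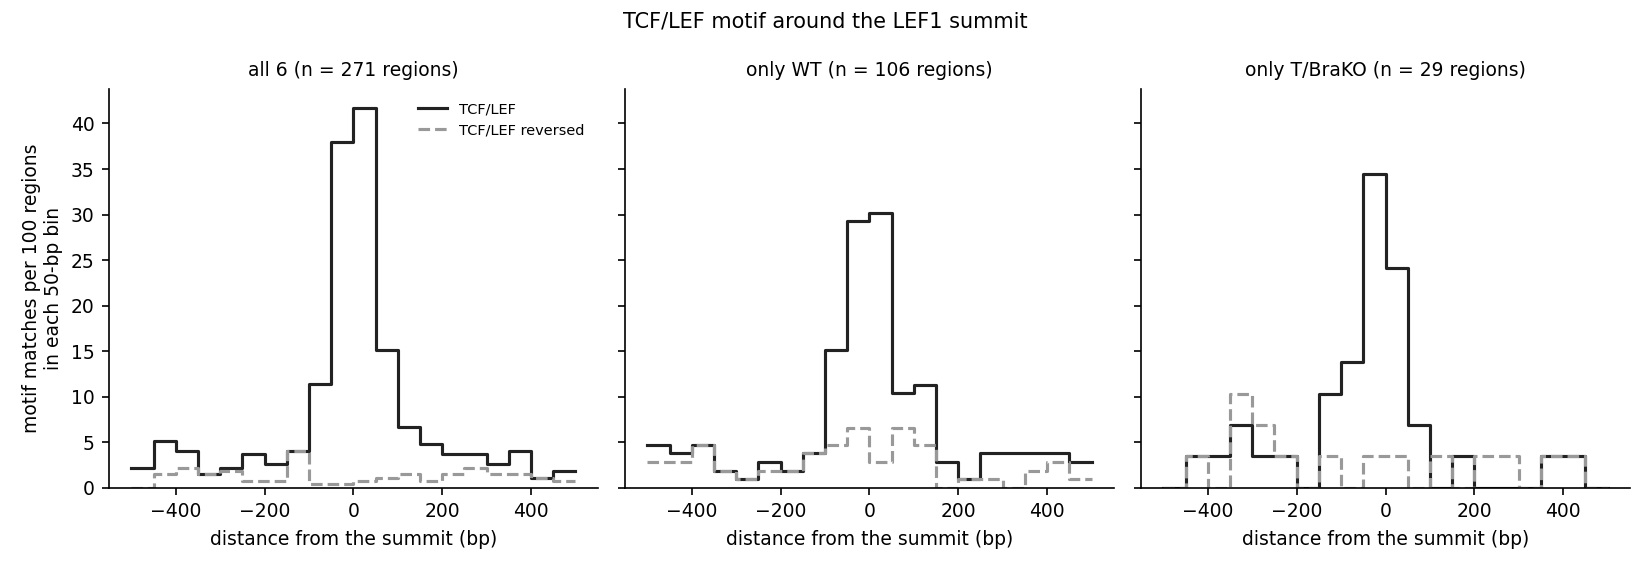
TCF/LEF motif matches per 100 regions (y axis) by distance from the LEF1 summit in bp (x axis) for the 271 shared, 106 WT-only and 29 T/BraKO-only regions, with the reversed letters of the motif as a dashed line. In all 3 classes the matches peak within 50 bp of the summit, reaching 41.7 per 100 regions in the shared class.

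The strongest shared regions were of different kinds. Some of those with a TCF/LEF motif at the summit were also among the best β-catenin peaks, while others, such as that nearest Plxdc2 with β-catenin ranks of 437, 785 and 14322 in WT and 138, 952 and 1503 in T/BraKO, were not. The region nearest Foxb1, a forkhead gene 92046 bp away, ranked 1, 12 and 2 for LEF1 in WT and 11, 5 and 4 in T/BraKO, with 294, 127 and 151 reads and 115, 139 and 150 reads. Its β-catenin ranks were 3, 2 and 1 in WT and 4, 2 and 3 in T/BraKO. A region in an intron of Mapkap1, which encodes a subunit of the TORC2 kinase complex, ranked 5, 16 and 7 in WT and 12, 4 and 6 in T/BraKO, and 1 or 2 in every β-catenin list. An intergenic region nearest 2510009E07Rik ranked 4, 25 and 3 and 33, 16 and 31, and between 1 and 4 in every β-catenin list. None of these 3 regions separated the genotypes.

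The other kind held no motif and lay in soft-masked bases, which the reference marks as repeats. A region in an intron of Fam227b was at the top of every list, with ranks 2, 1 and 1 in WT and 1, 1 and 2 in T/BraKO and 211 to 408 reads. A region in an intron of Ybx3, a cold-shock protein gene, ranked 9, 2 and 4 and 2, 2 and 3. The SOX2 libraries also had these regions near the top, with ranks 106, 2 and 52 in WT and 1, 5 and 81 in T/BraKO at Fam227b. Both belong to family D, which had 9 members, all shared and all soft-masked, 1 of them with a TCF/LEF motif. Family C had 10 members, also all shared and soft-masked, and no motif. The input libraries were not analysed here.

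The WT-only regions often held recurring sequence. Regions were linked, directly or through other regions, when at least 3 words of 16 bases within 100 bp of their summits were the same, a grouping made after the classes had been seen. By this measure 65 of 106 WT-only regions (61.3%) shared sequence with another region of the 3 classes, against 34 of 271 shared (12.5%) and 2 of 29 T/BraKO-only regions (6.9%). In windows moved by 1000 bp the shares were 12.9%, 13.2% and 13.8% for shared, WT-only and T/BraKO-only regions. Families A and B held 63 of the 106 WT-only regions. Family A had 39 regions, 34 of them WT-only, 4 shared and 1 T/BraKO-only, and 34 of the 39 held a TCF/LEF motif at the summit. Family B had 33 regions, 29 of them WT-only and 4 shared, and 26 held the motif. Of the family A regions 23 were soft-masked and of the family B regions 26. Sequence of family A recurred at 1076 places in the genome and that of family B at 2237.

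The named members of these families show the size of the difference in rank. The family B region in an intron of Vmn2r2, a vomeronasal receptor gene, ranked 173, 113 and 40 in WT with 49, 45 and 70 reads, and 445985, 517704 and 70934 in T/BraKO with 7, 8 and 10 reads. The family B region nearest Actr2, 21829 bp upstream of this actin-related gene, ranked 220, 66 and 59 in WT and 40396, 68081 and 43891 in T/BraKO, with 49, 59 and 60 reads against 18, 13 and 14. The family A region nearest Klf6, 420854 bp upstream, ranked 99, 196 and 235 in WT and 53992 and 730283 in T/BraKO replicates 1 and 2, with no peak in replicate 3. At each of the 3 the WT and T/BraKO ranks did not overlap, as the rule for the class demands. The genes only mark positions, since most of these regions lay far from any gene start.

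Among the best peaks, families A and B were less frequent in T/BraKO than in WT for LEF1 and for β-catenin. Among the 1000 best LEF1 peaks, 50, 79 and 86 held sequence of family A in WT and 13, 14 and 12 in T/BraKO. For family B the numbers were 36, 60 and 82 in WT and 3, 5 and 5 in T/BraKO. These LEF1 counts describe the families, which were defined on the same calls. The calls of the CdxKO LEF1 libraries did not define the classes, though their peaks entered the merging of regions. These libraries held 95, 75 and 70 peaks of family A and 72, 54 and 62 of family B among their 1000 best. The counts lay inside or above the WT range for A and inside it for B. Among the 1000 best β-catenin peaks, family A had 91, 161 and 128 in WT and 28, 23 and 32 in T/BraKO (127 ± 35 and 27.7 ± 4.5, SD, n = 3). Family B had 81, 163 and 119 against 7, 7 and 11 (121 ± 41 and 8.33 ± 2.31). In neither family did the β-catenin counts overlap between genotypes (exact permutation test, two-sided, p = 0.1 for each, the smallest possible, adjusted p = 0.267 over 8 tests). The difference was smaller further down the lists. Among the 20000 best β-catenin peaks family A had 344, 370 and 346 in WT and 268, 241 and 274 in T/BraKO, and family B 366, 472 and 389 against 189, 150 and 211, still without overlap (exact permutation p = 0.1 for each).

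SOX2 had at most 12 peaks of either family among the 1000 best of a list. Among these family B had 2, 12 and 10 in WT and 1, 1 and 0 in T/BraKO (exact permutation p = 0.1, adjusted p = 0.267), and family A 0, 3 and 1 against 0, 0 and 0 (exact permutation p = 0.4). Among the 20000 best SOX2 peaks the family B counts overlapped, at 41, 82 and 151 in WT and 28, 41 and 73 in T/BraKO (exact permutation p = 0.3). Families C and D, whose members were all shared and of which 1 held the motif, had β-catenin counts that overlapped between genotypes (exact permutation p = 1 and 0.6). For LEF1, family C had 7, 22 and 8 peaks in WT and 17, 8 and 13 in T/BraKO, and family D 8, 23 and 9 against 15, 11 and 10. WT replicate 2 had the highest count of both, and it was the library with fewest motifs among its 100 best peaks. How single-end reads that fit several copies were placed is not given in the sources used here, so a family peak may not mark a single genomic place.

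**Figure D3:**
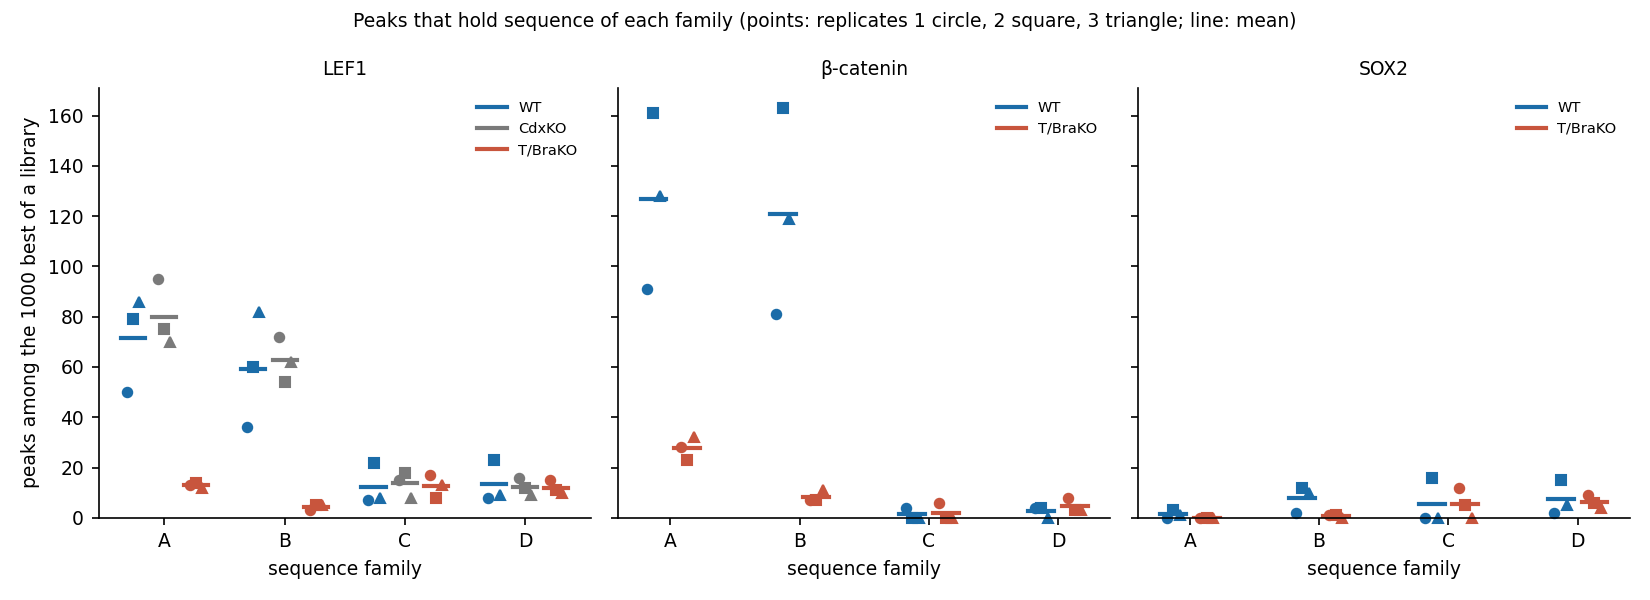
Number of peaks among the 1000 best of each library (y axis) that held sequence of family A, B, C or D (x axis), for LEF1, β-catenin and SOX2, with replicates as points and group means as lines. For families A and B the WT and CdxKO LEF1 points and the WT β-catenin points lie above all T/BraKO points, and for families C and D the genotypes overlap.

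Outside families A and B, 43 WT-only regions remained, and 21 of them (48.8%) held a TCF/LEF motif, against 52 of the 63 within the families (82.5%) and 183 of the 263 shared regions outside them (69.6%). The region with the best ranks lay in an intron of Ndufs4, a mitochondrial complex I gene, with ranks 307, 178 and 19 in WT and 39241, 86682 and 81207 in T/BraKO, and 45, 37 and 79 reads against 17, 16 and 10. The Dkk4 promoter was next. Regions further down, which included those nearest Ano4, Avpr1b and Olfr960, are described by examples picked after their values had been seen. One was nearest Cyp26b1 (a retinoic acid-degrading enzyme, 282891 bp away), with ranks 224, 670 and 363 in WT. Another lay in an intron of Dlgap1, 80768 bp from the start of Tgif1, with ranks 2758, 469 and 523. In the T/BraKO lists these ranked 102032, 394946 and 46806 at Cyp26b1, and 65903, absent and 36368 near Tgif1. When peaks with sequence of families A and B were left out before ranking, 45 WT-only regions were found in place of 106.

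Dkk4, a secreted WNT inhibitor that WNT signalling itself induces, was the only WNT feedback gene of 20 with a WT-only site. The summit lay at -271 to -236 bp from its start in WT. The site ranked 281, 315 and 359 in WT and 26943, 52748 and 45014 in T/BraKO, where it was still listed in all 3 libraries. Implied reads were 46, 29 and 27 against 19, 12 and 15, and fold enrichments 17.5, 17.7 and 13.6 against 6.78, 7.33 and 4.94, with no overlap on either scale. The rule for the class demands LEF1 ranks without overlap, so this separation is only a description. The CdxKO ranks were 12164, 32252 and 22978. The β-catenin ranks at Dkk4 were 2074, 1016 and 3004 in WT and 756, 1901 and 398 in T/BraKO, so they overlapped, the T/BraKO geometric mean rank being 0.449 times that of WT (exact permutation p = 0.2, adjusted p = 0.3 over 3 genes). The window of 121 bases printed for Dkk4 holds 3 TCF/LEF motifs. Of 27025 promoters in the RefSeq table, each a longer window of 300 bases, 6 hold at least as many (0.0222%) and 8.77% hold at least 1. The Dkk4 window was centred on a LEF1 summit and the promoters were not, so this is not a like comparison. No promoter of that table was matched to Dkk4 itself.

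Msgn1, a basic helix-loop-helix factor of the presomitic mesoderm, had LEF1 ranks that did not overlap between genotypes, as the rule for the class demands. Its β-catenin ranks, which the rule did not use, did not overlap either. Its promoter site ranked 3348, 498 and 498 for LEF1 in WT with 21, 29 and 22 reads. In T/BraKO the best peak within 10000 bp of its start ranked 714991 in replicate 1 and 28190 in replicate 2, with 7 and 14 reads, and replicate 3 listed none. The β-catenin ranks were 1273, 371 and 611 in WT and 25811, 32724 and 6452 in T/BraKO, without overlap and with a geometric mean rank 26.6 times higher in T/BraKO (exact permutation p = 0.1, the smallest possible, adjusted p = 0.3). In the T/BraKO lists of β-catenin the best peak lay at 5657, 95 and -113 bp from the start, against -194 to -178 bp in all 3 WT lists. Among the CdxKO LEF1 lists Msgn1 ranked 1599, 42811 and 59625. The RefSeq promoter of Msgn1 holds 2 TCF/LEF motifs, and 0.555% of all promoters hold at least as many. It was the highest among the named genes with a matched promoter. T and Sp5 hold 1 each, and the rest, such as Axin2, Cdx2 and Klf4, hold none.

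Klf4, a factor of naive pluripotency, was the other list gene with sites in WT lists only. Its ranks were 8398, 17317 and 2753 in WT and 70774, 296834 and 74912 in T/BraKO. The reads behind them, 18, 13 and 14 against 12, 8 and 12, were few, and the summits did not coincide in the 6 lists. The β-catenin ranks of Klf4 overlapped, at 333, 664 and 625 in WT and 687, 461 and 841 in T/BraKO (exact permutation p = 0.5). No gene of the WNT, mesoderm, caudal, pluripotency or neural lists had sites in T/BraKO lists only. Over all protein-coding genes only 90 of 21911 (0.411%) did, so an absence from lists this short is near the background share.

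At T the lists could not check the deletion. The best LEF1 peak within 10000 bp of its start ranked 2554, 43603 and 170919 in WT and 56315, 25100 and 1408 in T/BraKO, so the groups overlapped. LEF1 peaks inside the T gene were also listed in all 3 T/BraKO libraries (7, 2 and 3 peaks, against 8, 7 and 1 in WT), and the labels do not give the deleted stretch. β-catenin peaks lay at -274 to -226 bp from the start of T in both genotypes, with ranks 315, 282 and 292 in WT and 150, 727 and 87 in T/BraKO. A WT-only region, picked after its values had been seen, lay 12674 bp upstream of T inside the gene T2, with ranks 1139, 3251 and 6339 against 125749, 354073 and 169577, and it held a TCF/LEF motif. The gene of the antibody's target, Lef1, had ranks of 270, 90217 and 21304 in WT and 11767, 488 and 2289 in T/BraKO, and the genotypes overlapped.

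Several more WT-only regions lay near developmental genes. They were picked after their values had been seen and are given as a description. A region 7561 bp downstream of the start of Fgf8, a signal of the primitive streak and tailbud, ranked 9658, 15249 and 10787 in WT and 82670 in T/BraKO replicate 1, and was not listed in the other two. It held a T-box motif and no TCF/LEF motif. A region 154 bp upstream of Hoxb2 ranked 1089, 8737 and 19627 in WT and 378143 and 120072 in T/BraKO replicates 1 and 3, and a region 1240 bp upstream of Tdgf1, which encodes the NODAL co-receptor Cripto, ranked 2449, 14117 and 3734 against 146631 and 126522. A region in Wnt3 was the last inside the limit, at rank 19628 in WT replicate 3. The T/BraKO peak closest to the limit from outside, at rank 21624, was at the region nearest Lcorl. The other 2 WT-only regions with a T-box motif were nearest Slc38a6 and Cxcr3, and all 3 lay outside families A and B.

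The T/BraKO-only regions numbered 29, and many rested on few reads. The best lay in an intron of Cdk6, a cell-cycle kinase gene, with ranks 226, 355 and 971 in T/BraKO and 32, 29 and 19 reads. It ranked 58504 and 59062 in WT replicates 1 and 2, with 14 and 15 reads, and was not listed in replicate 3. A region 19364 bp upstream of Smu1, a splicing factor gene, ranked 1313, 178 and 332 in T/BraKO and 33245, 22500 and 66374 in WT. A region in an intron of Shb, an adaptor protein gene, ranked 291, 1393 and 2488 in T/BraKO, with 30, 22 and 16 reads, and 52297 in WT replicate 1 alone. The Luzp2 region ranked 8133, 166 and 172 in T/BraKO, and 73067 in WT replicate 3 alone. The others of the 10 best were nearest Arhgef28, Nmnat2, Tfap2c, Zfp536, Xpo6 and Sec22b, and their T/BraKO ranks lay between 249 and 8263. A region in Thsd7a was the last inside, at rank 19733, and the WT peak at Sec22b, at rank 21811, the closest outside.

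β-catenin was found at most LEF1 regions of the 3 classes. At the WT-only regions a peak among the 20000 best lay at 99.1%, 97.2% and 91.5% in WT and at 87.7%, 67.0% and 89.6% in T/BraKO, a difference of -14.5 percentage points with no overlap (exact permutation p = 0.1, the smallest possible, adjusted p = 0.333). These regions were chosen by their LEF1 calls, in which the β-catenin libraries had no part. T/BraKO replicate 2 had the lowest share, and without this β-catenin library the difference was -7.23 points (exact permutation p = 0.2). Leaving out the LEF1 libraries WT replicate 2, WT replicate 3 or T/BraKO replicate 2 gave -7.19, -8.62 and -9.78 points. At the T/BraKO-only regions the shares were 93.1%, 86.2% and 89.7% in WT and 96.6% in each T/BraKO library, a difference of 6.9 points (exact permutation p = 0.1, adjusted p = 0.333). Without the family A region near Arhgef28 the shares overlapped, at 96.4%, 85.7% and 92.9% in WT and 96.4% in each T/BraKO library (exact permutation p = 0.4). Within families A and B the WT-only regions had β-catenin at 100% in each WT library and at 88.9%, 71.4% and 88.9% in T/BraKO (exact permutation p = 0.1). At the 43 WT-only regions outside them the shares were 97.7%, 93.0% and 79.1% against 86.0%, 60.5% and 90.7%, and the groups overlapped (exact permutation p = 0.5).

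The CdxKO LEF1 libraries called 92.3%, 93.7% and 91.1% of the shared regions, 74.5%, 61.3% and 62.3% of the WT-only regions and 44.8%, 62.1% and 51.7% of the T/BraKO-only regions. The WT-only regions of families A and B were called more often than the rest: CdxKO lists held 87.3%, 81.0% and 77.8% of them, and 55.8%, 32.6% and 39.5% of the other 43. SOX2 peaks lay at 55.7%, 63.1% and 81.5% of the shared regions in WT and at 75.6%, 83.8% and 83.0% in T/BraKO. At WT-only regions the shares were 22.6%, 33.0% and 60.4% and at 18.9%, 18.9% and 33.0%. At T/BraKO-only regions the shares were 34.5%, 48.3% and 65.5% in WT and 62.1%, 69.0% and 75.9% in T/BraKO. In each class the SOX2 ranges of the genotypes overlapped.

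**Figure D4:**
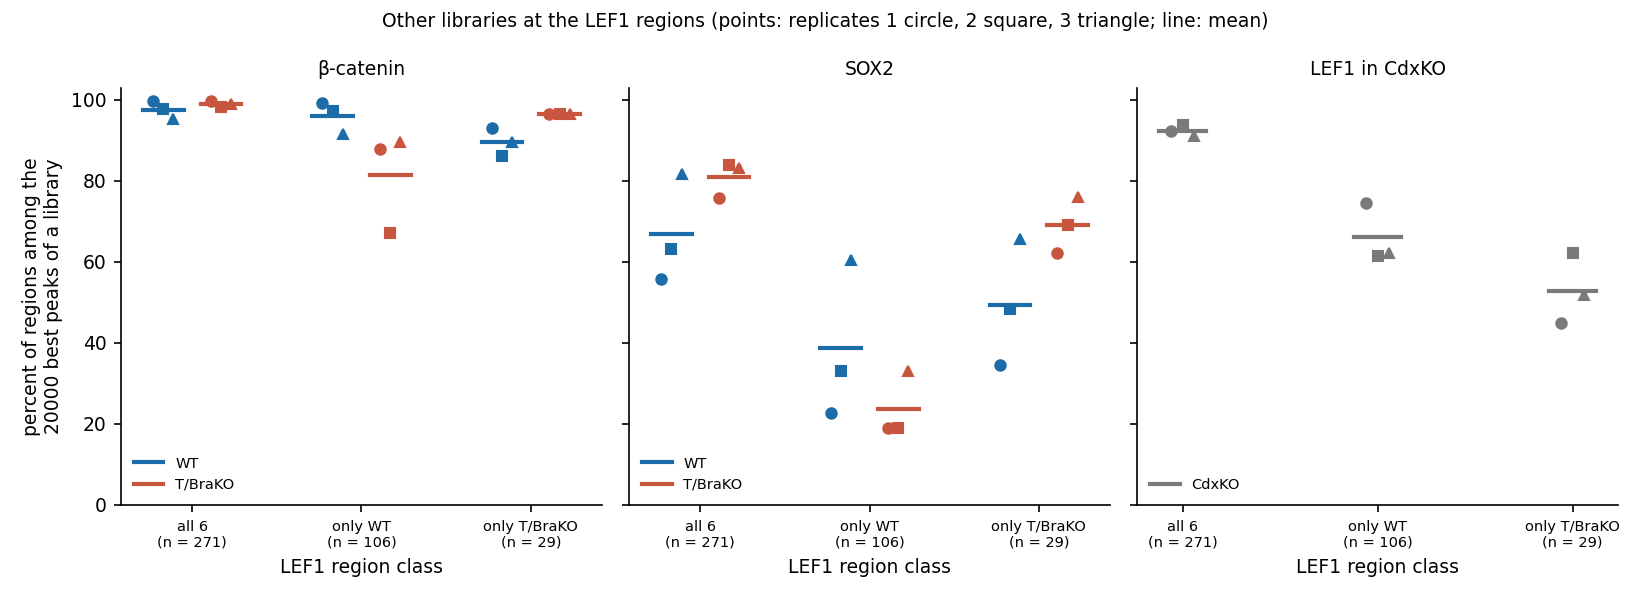
Percent of the shared (all 6), WT-only and T/BraKO-only LEF1 regions (x axis) with a peak among the 20000 best of each β-catenin, SOX2 or CdxKO LEF1 library (y axis), with replicates as points and group means as lines. The β-catenin points of the genotypes do not overlap at WT-only and at T/BraKO-only regions, and the SOX2 points overlap in every class.

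By gene, 135 of 21911 protein-coding genes (0.616%) had 1 of the 20000 best summits within 10000 bp of their start in all 6 lists, 92 (0.42%) in the WT lists only and 90 (0.411%) in the T/BraKO lists only. Among genes of the caudal epiblast, 5 of 18 had a site in all 6 lists (among them Evx1, Cdx1, Cdx2 and Hoxb1), and among WNT feedback genes 3 of 20 did (Axin2, Sp5 and Tnfrsf19). WT-only genes were 1 of 20 WNT feedback genes, 1 of 20 paraxial mesoderm genes and 1 of 19 pluripotency genes.

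The number of list genes with a site overlapped between the genotypes in every developmental list. Among 20 WNT feedback genes 12, 7 and 7 had a site in WT and 8, 8 and 12 in T/BraKO (exact permutation p = 0.6). Among 20 paraxial mesoderm genes, 12, 9 and 8 had a site in WT and 6, 6 and 9 in T/BraKO (exact permutation p = 0.3). Of 18 caudal epiblast genes 15, 10 and 11 had a site in WT and 10, 9 and 12 in T/BraKO. Of 14 mesendoderm genes 10, 5 and 7 did against 3, 5 and 8, and of 19 pluripotency genes 7, 6 and 5 against 3, 4 and 6. Of 18 neural genes 5, 6 and 9 did against 5, 7 and 6. Of 24 WNT ligands and receptors 8, 7 and 7 did against 6, 8 and 6, and of 13 genes of the TCF/LEF complex 8, 5 and 3 against 4, 8 and 7. Over all protein-coding genes 18.3% to 20.4% had a site in WT and 17.4% to 20.2% in T/BraKO.

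Among the shared WNT feedback genes, Sp5, a zinc-finger factor directly induced by WNT, ranked 75, 577 and 208 in WT and 1170, 217 and 223 in T/BraKO. In WT the best summit lay 5 to 8 bp downstream of its start in all 3 lists, while in T/BraKO it lay at -2738 and -2693 bp from the start in replicates 1 and 2. β-catenin was at the start of Sp5 in every list, at ranks 3 to 15. Axin2, a scaffold of the β-catenin destruction complex, ranked 354, 348 and 332 in WT and 4381, 567 and 187 in T/BraKO, with 47, 29 and 29 reads against 23, 27 and 36. Tnfrsf19 ranked 98, 792 and 1227 against 15396, 177 and 385. Fzd10, a WNT receptor, ranked 109, 5263 and 688 against 741, 36 and 157. At each of these genes the genotypes overlapped.

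Of the caudal epiblast genes, Cdx1, a homeobox gene of the posterior axis, ranked 61, 52 and 38 in WT and 632, 173 and 122 in T/BraKO, with 74, 61 and 63 reads against 25, 38 and 38. Its ranks and reads did not overlap between the genotypes, and its β-catenin ranks, 22, 10 and 21 against 17, 12 and 11, did. Neither this separation nor the opposite one at Evx1 was tested, and both were seen among the several shared genes described. Cdx2 ranked 561, 4256 and 564 in WT and 273, 324 and 1439 in T/BraKO. Evx1, another homeobox gene of the streak, had the order reversed, with ranks 165, 179 and 239 in WT and 67, 61 and 117 in T/BraKO and summits at -2089 to -2048 bp from the start in all 6 lists. Hoxb1 ranked 71, 423 and 23 in WT, with summits at -208 to -184 bp from the start, and 10392, 28 and 15110 in T/BraKO. T/BraKO replicate 2 had its best summit at that place, and T/BraKO replicates 1 and 3 had theirs 7006 and 3513 bp downstream.

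Gbx2, a homeobox gene of the neural list, ranked 8, 33 and 29 in WT and 59, 7 and 92 in T/BraKO, with summits at -4900 to -4840 bp from the start in all 6 lists and β-catenin ranks of 5 to 19. Ripply2, a repressor in somite formation, ranked 392, 515 and 464 against 278, 2824 and 737. Tcf7l1, a family member of LEF1 that mostly represses, ranked 274, 3 and 213 in WT and 14, 8 and 1 in T/BraKO and reads of 41, 206 and 33 against 107, 111 and 365. Its β-catenin ranks were only 2060 to 5800, and the window at its LEF1 summit held no TCF/LEF motif. For 14 of 17 named genes a RefSeq promoter was matched. Among chemosensory receptor genes, which epiblast cells do not use, 10.3% to 12.8% had a site in WT and 10.1% to 11.1% in T/BraKO (exact permutation p = 0.5). Of 1479 such genes, 3 had a site in all 6 lists (Vmn1r1, Olfr854 and Olfr855, the last of these sharing a peak), 4 in WT lists only (Olfr1229, Vmn1r54, Olfr45 and Olfr960) and Olfr1099 in T/BraKO lists only.

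**Figure D5:**
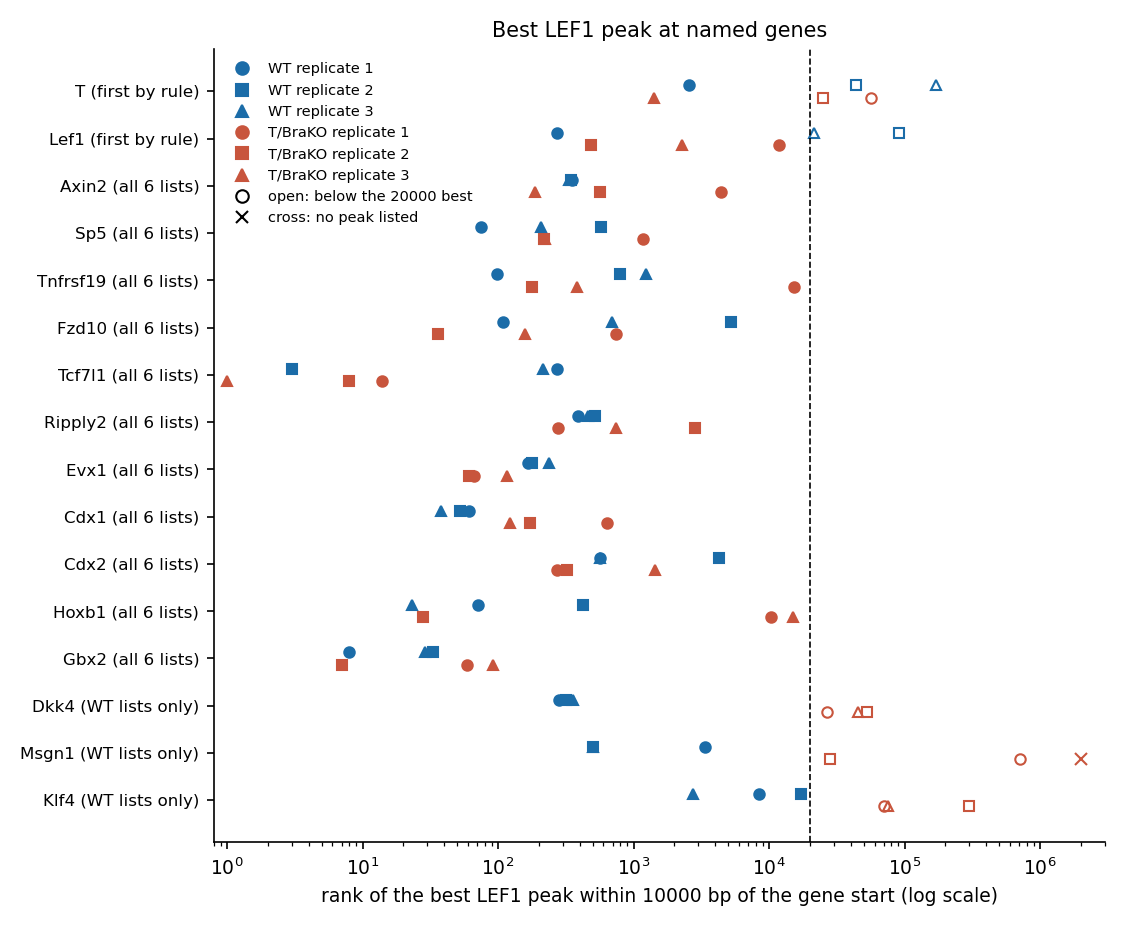
Rank of the best LEF1 peak within 10000 bp of the start of the developmental genes described (x axis, log scale, rank 1 is best) in 3 WT and 3 T/BraKO libraries, with open symbols below the 20000 best and crosses where no peak was listed. At Dkk4, Msgn1 and Klf4 all WT points lie left of the dashed line at rank 20000 and all T/BraKO points right of it, as the rule that named them demands. At most shared genes the genotypes overlap.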

How the data were processed

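ChIP–seq peak lists of 21 libraries were used of 30 in the series. Per the paper, the authors trimmed single-end reads (Trim Galore), aligned them to mm10 (BWA), filtered them and called narrow peaks with MACS (MACS2 in the submitters' processing notes) through nf-core/chipseq, one list per library. The control input of each list is not given in the sources used here. Each deposited peak has a fold enrichment (a ratio) at its summit and, per the authors' caller, −log10 p and −log10 q values. The deposited score column was not used. Library depth is unknown, and reads at a summit were solved from fold and p (to 0.001 in −log10 p). Such values cover counting error only.

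Peaks on chromosomes 1 to 19, X and Y were ranked by −log10 q, −log10 p, fold enrichment and position. Regions were merged over 9 LEF1 lists at 1 bp overlap. GRCm38.p6 and GENCODE basic genes gave sequence and annotation. Groups were compared with exact permutation tests (20 assignments of 3 against 3, 10 splits for the Jaccard excess, smallest p 0.1), adjusted by Benjamini-Hochberg (Python 3.11.15, scipy 1.17.1, numpy 2.4.6, pandas 2.3.3), and the scripts were tested on simulated data. Named genes were T and Lef1, list genes with a site in all 6 lists or in 1 genotype only, and the 10 best regions per class. Members and gene lists were chosen with earlier results of these data known. Alternatives were other numbers of best peaks, ranking by fold, merged summit windows, other motif and gene windows, repeats left out, each library left out and a replicate block. Whether replicate numbers paired the samples was not settled. Deviation correlations of same-numbered libraries lay between -0.00241 and 0.00138 at the 20000 best peaks, a cut that removes differences in list length. With the full lists they were -0.0121, -0.0196 and -0.123 for replicates 1, 2 and 3. Replicate 3 had the shortest list in WT, T/BraKO and CdxKO. One of the genes the rule names and some sequences are not reported here.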

Additional observations from a re-analysis of the deposited data

How the results depend on the processing

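Counts of regions depended on depth. With the 1000 best peaks there were 44 WT-only, 9 T/BraKO-only and 113 shared regions, and with the full lists 1852, 5372 and 1477, where T/BraKO-only regions outnumbered WT-only regions. With repeat summits left out 59 WT-only regions were found, and with families A and B left out 45 (chosen after seeing the data). Leaving out each library in turn gave 134 to 343 WT-only, 45 to 231 T/BraKO-only and 288 to 357 shared regions. Fewer lists then had to agree. Leaving out libraries gave an overlap excess of -0.000359 to 0.00288, which was also -0.00206 with the full lists and changed sign without WT replicate 2 and without WT replicate 3 (-7.06e-05).

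No exact permutation test could pass the usual threshold with 3 against 3 libraries, and several differences (T/BraKO minus WT) changed direction. The promoter share differed by 0.9 points with 1000 and 0.0267 with 5000 best peaks, and by -0.703 to 0.353 with 1 library left out, including 0.158 without WT replicate 1. WNT feedback genes differed by -1.67 (1000 best), -1.33 (5000 best), -0.667 (repeats left out), -1 (50000 bp from the start) and -0.667 (gene body), and by -0.667 to 2.33 with 1 library left out, including -0.167 without WT replicate 2 or 3. Mesoderm genes differed by 0.667 with 5000 best peaks. Chemosensory genes differed by 7.66 points with full lists and 0.699 with repeats left out. The T-box share differed by 0.00833 in the widest window and 0.0617 for the reversed letters. β-catenin at T/BraKO-only regions differed by -2.54 with full lists. Log10 peak number differed by -0.0397 to 0.320 with 1 library left out. The cause of these changes was not tested. Of the 30 named regions, 21, 27, 10 and 30 kept their class with the 1000 best, 5000 best, full lists and ranking by fold, and none changed sides.

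In the labels, same-numbered samples shared only that number. The replicate block (8 assignments, smallest p 0.25), which paired samples by it, changed no call, and with so few assignments it could not have. Exact sign-flip p was 0.25 for peak number (0.153) and for β-catenin at WT-only regions (-14.5 points). Peaks at rank 20000 rested on 12 to 16 implied reads, so differences between single peaks there are uncertain. Whether they can be detected was not tested.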
